A study of Mus musculus with 6 samples.

Results

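Wnt ligands, their receptors and their secreted antagonists were examined in bulk RNA-seq of MC38 tumors. The 46 genes were taken by name from the 33965 genes of the deposited table: 18 Wnt ligands, 10 Frizzled receptors, the co-receptors Lrp5, Lrp6, Ror1 and Ror2, 3 R-spondins, 10 secreted antagonists (Sfrp1, Sfrp2, Sfrp4, Sfrp5, Frzb, Dkk1, Dkk2, Dkk3, Dkk4 and Wif1), and Axin2. MC38 cells, a line from a mouse carcinoma of the colon, were grown under the skin of C57BL/6 mice, an inbred strain with an intact immune system. The methods of the study give female mice bought at 6 weeks of age. One group of 3 tumors came from mice given PBS, a salt buffer, and the other 3 from mice given GB2. GB2 is a prodrug of MSA-2, an agonist of STING, and artesunate, used in the study as an inhibitor of TREM2. A linker that glutathione cleaves holds the parts together, and the prodrug was given into a vein. No genetic change separates the groups. The GB2 dose in the MC38 model was 10 mg/kg, while the dose and the day of collection of the sequenced tumors are not given separately in the sources used here. All tumors stem from 1 cell line, and each value is an average over the tumor cells, immune cells and stroma of a tissue piece.

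Wnt proteins are secreted, lipid-carrying signals. In the β-catenin branch of the pathway, a Wnt bound to a Frizzled receptor and to LRP5 or LRP6 blocks the complex that destroys β-catenin, and β-catenin then switches on genes with TCF/LEF factors, Axin2 among them. Other Wnts, with WNT5A as the best known, act through Frizzled and ROR receptors without β-catenin. The branch through β-catenin renews the stem cells of the gut lining, and most human colon carcinomas carry mutations that keep it on. SFRP proteins, FRZB and WIF1 bind Wnts outside the cell, DKK proteins other than DKK3 act on LRP5 and LRP6, and R-spondins hold Frizzled receptors at the surface.

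Promoter sequences are shown for 3 members in which the lowest GB2 tumor exceeded the highest PBS tumor and for Axin2, the standard readout of the β-catenin branch. They are the 250 bases before the start of each gene in RefSeq, build GRCm38.p6, written 5′ to 3′ on the strand of the gene. Capitals mark GC boxes (GGGCGG or, on the other strand, CCGCCC), and neighbouring boxes may run together. The Wnt9a promoter lies at chr11:59306680-59306929 (plus strand), that of Sfrp2 at chr3:83766071-83766320 (plus strand), that of Fzd4 at chr7:89404116-89404365 (plus strand) and that of Axin2 at chr11:108920099-108920348 (plus strand).
Wnt9a: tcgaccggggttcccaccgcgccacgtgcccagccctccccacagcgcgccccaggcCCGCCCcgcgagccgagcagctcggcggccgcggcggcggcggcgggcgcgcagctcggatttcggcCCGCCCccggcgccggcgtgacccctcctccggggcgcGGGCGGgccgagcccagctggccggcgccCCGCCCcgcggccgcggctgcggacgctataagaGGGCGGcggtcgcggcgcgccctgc
Sfrp2: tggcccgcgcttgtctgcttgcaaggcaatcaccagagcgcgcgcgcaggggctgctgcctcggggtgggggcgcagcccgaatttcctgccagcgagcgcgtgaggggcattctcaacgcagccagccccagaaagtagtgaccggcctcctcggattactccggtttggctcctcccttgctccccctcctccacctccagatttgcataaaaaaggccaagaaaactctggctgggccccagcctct
Fzd4: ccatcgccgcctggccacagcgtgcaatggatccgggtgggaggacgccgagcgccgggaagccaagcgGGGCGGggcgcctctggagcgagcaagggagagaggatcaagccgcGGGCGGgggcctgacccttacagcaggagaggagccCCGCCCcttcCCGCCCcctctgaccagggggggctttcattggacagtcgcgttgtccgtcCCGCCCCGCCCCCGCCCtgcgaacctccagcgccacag
Axin2: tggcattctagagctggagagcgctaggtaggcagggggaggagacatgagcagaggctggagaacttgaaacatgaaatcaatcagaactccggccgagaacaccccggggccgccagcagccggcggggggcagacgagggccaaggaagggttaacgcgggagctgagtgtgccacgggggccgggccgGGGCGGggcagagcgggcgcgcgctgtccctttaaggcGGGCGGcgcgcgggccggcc

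The Wnt9a promoter holds 84.4% G and C and 5 GC boxes, and that of Fzd4 holds 72.8% and 7. The Sfrp2 promoter holds 63.6% G and C and none of the motifs searched, and that of Axin2 holds 69.2% and 2 GC boxes. Over all 32851 RefSeq promoters of this length, the median was 52.4% G and C. Of the 46 members, 30 have an entry, with 33 promoters among them, and 24 of these 33 hold a GC box, against 32.7% of all promoters. The core letters of the TCF/LEF motif (TCAAAG or CTTTGA) stand in 6 of the 33, against 13.8% of all, and not in the window of Axin2. The AP-1 motif TGANTCA stands in 2 of the 33, against 6.70% of all, and TATAAA (or TTTATA) in 5, against 12.4%. These matches describe letters in a window and are not binding sites. For Wnt5a, Sfrp1, Sfrp4 and Fzd8 the table used here has no entry. The window of Fzd1 is not shown, since its first bases were not found in an annotated transcript.

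The levels of the members were compared first. FPKM, a count of fragments scaled by transcript length and by library size, allows a comparison between genes, because it is divided by length. By the mean FPKM over the 6 tumors, 12 of the 46 members were at 1 or more and 4 were at 10 or more. These 4 were Dkk3 (16.5 FPKM), Lrp6 (15.6 FPKM), Fzd7 (15.1 FPKM) and Lrp5 (13.9 FPKM). DKK3 is the divergent member of the Dickkopf family, not known as a blocker of LRP5 and LRP6, FZD7 is a Frizzled receptor often studied in colon tumors, and LRP5 and LRP6 are the co-receptors of the β-catenin branch. The receptor side was therefore measured well above the ligand side.

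No Wnt ligand reached a mean of 1 FPKM. The most abundant was Wnt6 at 0.380 FPKM, followed by Wnt5b at 0.331 FPKM and Wnt2b at 0.293 FPKM, and the highest level of any ligand in any tumor was 0.522 FPKM (Wnt6, PBS tumor 1). The FPKM of the 18 ligands summed to between 1.25 and 1.67 in the PBS tumors and between 1.80 and 2.00 in the GB2 tumors. Frizzled receptors summed to 24.7 to 32.6 FPKM in the PBS tumors and 25.1 to 36.1 FPKM in the GB2 tumors. For the co-receptors the sums were 22.9 to 39.2 FPKM and 27.7 to 31.9 FPKM, and for the secreted antagonists 10.6 to 23.8 FPKM and 21.9 to 31.5 FPKM. Of these sums, only that of the ligands separated the groups. Among single ligands only Wnt5a and Wnt9a did so, and Wnt6, Wnt5b and Wnt2b did not, so the sum does not show a shift across the ligands.

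**Figure D1:**
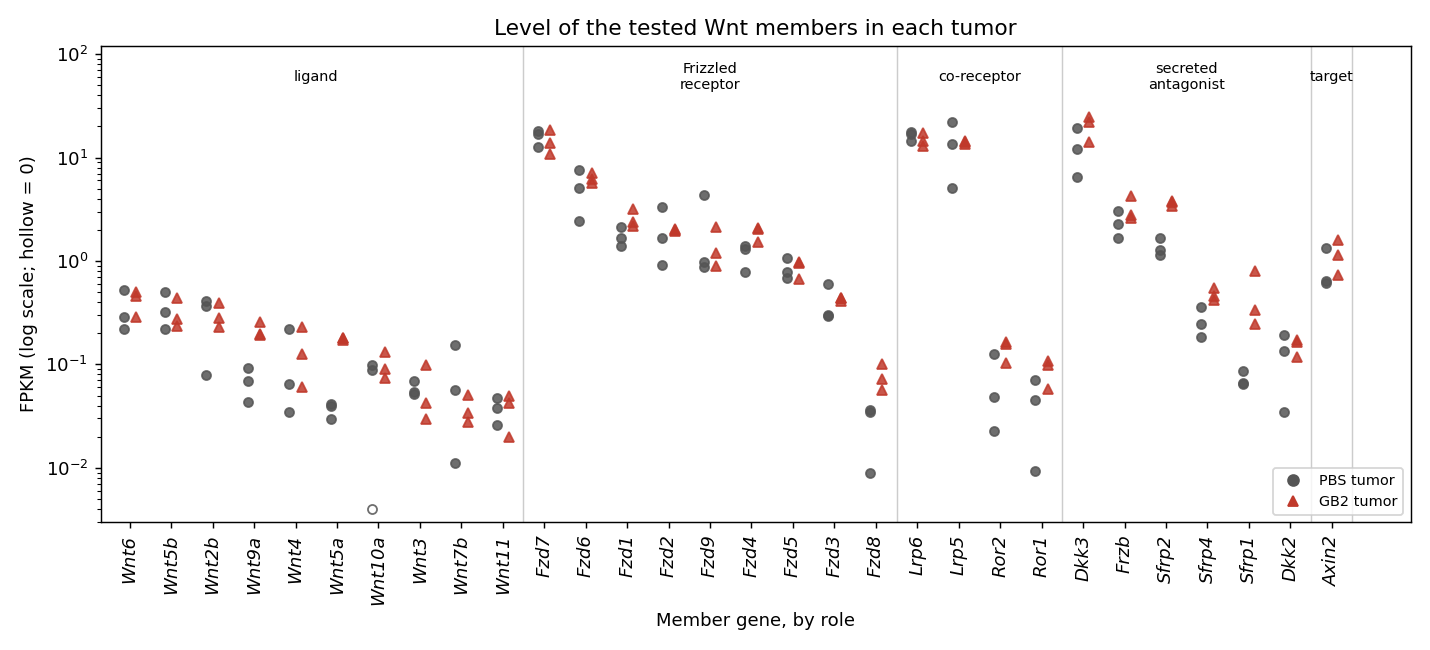
Level of each of the 30 tested members in each tumor, in FPKM on a log scale, with genes ordered by role and by mean level. Each dark circle is a PBS tumor, each red triangle is a GB2 tumor and the hollow circle is a tumor listed at 0. The 10 tested ligands lie below 1 FPKM, while Fzd7, Lrp5, Lrp6 and Dkk3 lie at or above 10 FPKM on average.

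The total counts per tumor ran from 64764405 to 83690056, and the GB2 libraries were the 3 largest. PBS tumor 1 stood apart from the other tumors in a principal component analysis, on a first component that held 34.0% of the variance. The deposited counts are estimates in which about 4 counts stand for 1 read pair. Of the 46 members, 30 had enough counts to be tested and 16 did not. The 16 were the ligands Wnt1, Wnt2, Wnt3a, Wnt7a, Wnt8a, Wnt8b, Wnt10b and Wnt16, the receptor gene Fzd10, the R-spondins Rspo1, Rspo2 and Rspo3, and the antagonists Dkk1, Dkk4, Sfrp5 and Wif1. Among them, 11 had fewer than 12 counts, or 3 read pairs, in every tumor, and the highest count was 26, for Wnt10b in GB2 tumor 2. Wnt1, a classical ligand of the β-catenin branch, was at 0 counts in all 6 tumors. Rspo1 reached at most 16 counts, Rspo2 at most 4 and Rspo3 at most 7, so R-spondin transcripts were not detectable beyond a few read pairs at this depth.

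Wif1, which encodes a secreted factor that binds Wnts directly, stood out among the untested members. It had 0 counts in each PBS tumor and 8, 12 and 19 counts in GB2 tumors 1, 2 and 3. The groups did not overlap, but the values rest on a few read pairs per tumor. No fold is given for Wif1, because 12 counts in each PBS tumor, the floor used here, would be near its GB2 counts. Dkk1, which encodes a high-affinity blocker of LRP5 and LRP6, had 0, 8 and 4 counts in the PBS tumors, against 0 in each GB2 tumor, which does not show a difference at this depth.

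GB2 was compared with PBS by edgeR's quasi-likelihood test over all 19602 genes with enough counts. The log2 fold change is that of GB2 over PBS, so that a value of 1 is a doubling, and it is given with its standard error (SE). CPM is the count of a gene scaled to a common library size after TMM normalization, used here to compare 1 gene between tumors. Calls required an adjusted p under 0.05, after Benjamini-Hochberg adjustment over all genes tested, with at least a 2-fold change. None of the 30 tested members was called, and neither was any other gene, so that 0% of the genes tested passed (edgeR). The smallest adjusted p of a member was 0.190 and the smallest of any gene 0.166. At an unadjusted p under 0.05, with no limit on the fold, there were 5 members and 1360 genes. DESeq2, run as an alternative on the same genes, called 352 genes as higher in the GB2 tumors (1.8%) and 33 as lower (0.168%). Among the higher ones were 3 of the 30 members, Wnt5a, Sfrp2 and Sfrp1, and no member was among the lower ones. Since the calls differ between the tools, the differences below are given as higher or lower values.

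A looser limit of an unadjusted p under 0.05 with at least a 2-fold change was used to describe the members against all genes. In edgeR, 4 of the 30 members (13.3%) were higher in the GB2 tumors at this limit, Wnt5a, Wnt9a, Sfrp1 and Sfrp2, where 3.74% of all genes tested were. No member was lower, where 0.918% of all genes were. In 8 of the 30 (26.7%), the groups did not overlap in CPM and GB2 was higher, where 8.61% of all genes did so. These 8 were the ligands Wnt5a and Wnt9a, the receptors Fzd1, Fzd4 and Fzd8, and the antagonists Sfrp1, Sfrp2 and Sfrp4. Fzd8 had 15, 16 and 4 counts in the PBS tumors and entered the fit only with the help of its GB2 counts. With counts divided by 4, Fzd8 was not tested, and the number was 7 of 24 tested members, where 8.8% of all genes did so. The opposite order was found in 0 members and in 6.68% of all genes. PBS tumor 3 decided part of these counts. Without it, 7 of 33 tested members passed the looser limit, with Ror2, Dkk3 and Wif1 added, where 4.02% of all genes did. In the same fit 15 had GB2 above PBS, where 15.7% of all genes did. Wif1, at 0 in the PBS tumors, entered this fit only through its GB2 counts. Ror1 (18 and 4 counts in PBS tumors 1 and 2) and Ror2 (15 and 8) entered it only with the help of theirs. Both are among the 15, so these shares are partly favoured by the filter. Without PBS tumor 1, 5 of 32 tested members passed the looser limit and 10 had GB2 above PBS, Wif1 again included. The shares of all genes were then 4.63% and 14.6%. The median log2 fold change of the 30 members was 0.27, beside -0.02 over all genes tested, and 0.53 without PBS tumor 3. Of the members, 21 had a positive and 9 a negative log2 fold change, and 23 lay within 2-fold. Like Fzd8, some of them passed the filter only with the help of GB2 counts, which can favour positive values. These were Ror1, Ror2 and Wnt10a, with positive log2 fold changes, and Wnt7b and Wnt11, with negative ones. No test was run on the members as a list.

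**Figure D2:**
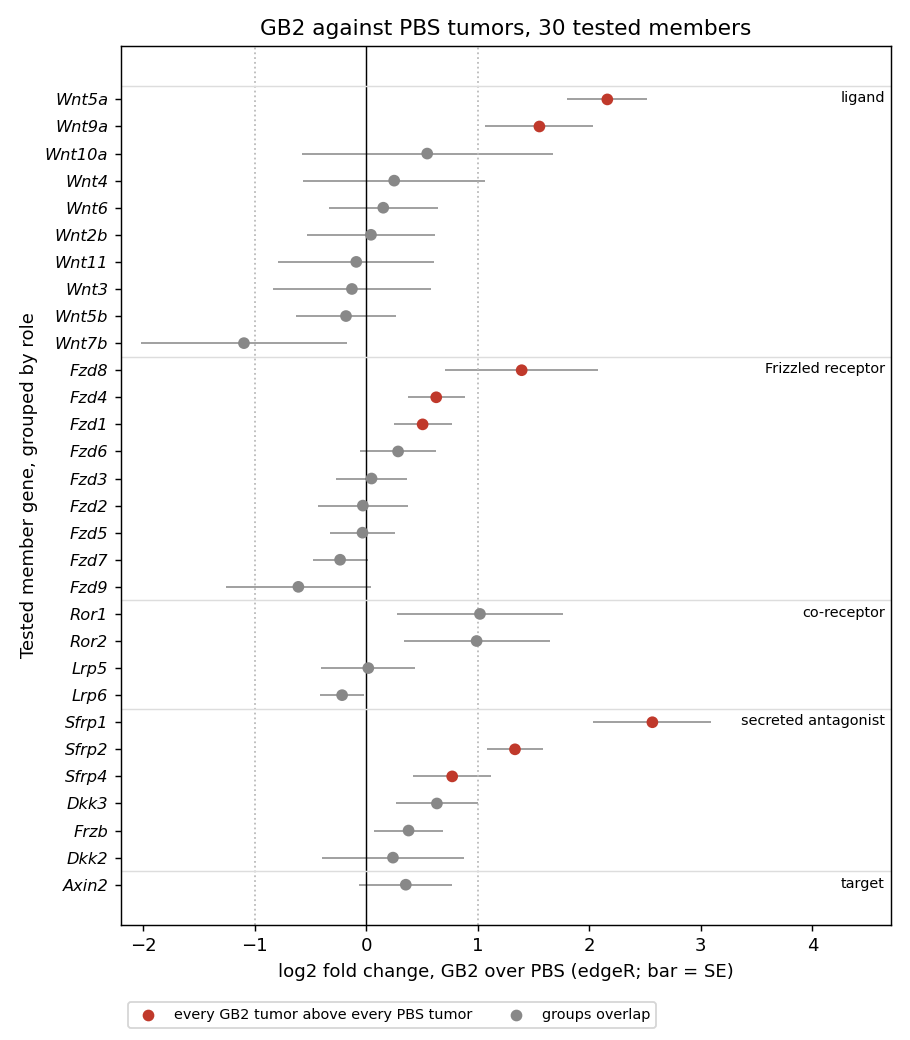
Log2 fold change of GB2 over PBS for the 30 tested members, from edgeR, with bars of 1 SE, grouped by role. Red points are the 8 members without overlap between the groups, all higher in GB2, grey points are members whose groups overlap, and dotted lines mark a 2-fold change. Wnt5a (2.16) and Sfrp1 (2.57) lie farthest to the right and Wnt7b (-1.10) farthest to the left.

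Among the ligands, Wnt5a and Wnt9a were higher in the GB2 tumors and the other 8 tested ligands overlapped between the groups. WNT5A is the main ligand of the branch that does not use β-catenin. Wnt5a (ENSMUSG00000021994) lies on chromosome 14 from 28226707 to 28249405 in the positions of the deposited table. PBS tumors 1, 2 and 3 had 17, 23 and 24 counts of Wnt5a, against 119, 124 and 117 for GB2 tumors 1, 2 and 3. In CPM this was 0.288, 0.326 and 0.340 against 1.42, 1.49 and 1.38. The 3 GB2 tumors lay close together and far above the PBS tumors, with no overlap. The mean CPM was 0.318 ± 0.0271 (SD, n = 3) in the PBS group and 1.43 ± 0.0580 (SD, n = 3) in the GB2 group. The fold change was 4.47, and the log2 fold change 2.16 (SE 0.36, adjusted p = 0.190, edgeR's quasi-likelihood test). Wnt5a thus differed by far more than its spread between tumors and yet missed the adjusted limit. Its PBS values rest on a few read pairs per tumor, and its mean FPKM was 0.0369 in PBS and 0.178 in GB2. DESeq2 gave an adjusted p of 2.3e-05, and over the 14 other settings the adjusted p ran from 2.3e-05 to 0.710. In a bulk sample, more cells that express such a gene and more RNA per cell cannot be told apart.

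WNT9A is a ligand studied mostly in joint and limb development. Wnt9a (ENSMUSG00000000126, chromosome 11 from 59197754 to 59224378 in the table's positions) had a CPM of 0.169, 0.241 and 0.340 in the PBS tumors, against 0.858, 0.697 and 0.659 in the GB2 tumors. Each GB2 tumor lay above each PBS tumor. The means were 0.250 ± 0.0855 (SD, n = 3) and 0.738 ± 0.105 (SD, n = 3), a 2.93-fold difference, with a log2 fold change of 1.55 (SE 0.48, adjusted p = 0.496, edgeR's quasi-likelihood test). Without GB2 tumor 1, Wnt9a was just outside the looser limit on p.

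The 3 most abundant ligands did not separate the groups. Wnt6 had a CPM of 1.35, 0.511 and 0.665 in the PBS tumors, against 1.11, 0.661 and 1.03 in the GB2 tumors, with a log2 fold change of 0.15 (SE 0.49, adjusted p = 0.940, edgeR). Wnt2b had a CPM of 0.389, 1.62 and 1.77 in the PBS tumors, against 1.66, 1.25 and 0.988 in the GB2 tumors, with a log2 fold change of 0.04 (SE 0.57, adjusted p = 0.986, edgeR). For both genes, 1 PBS tumor set the width of the range, PBS tumor 1, the highest for Wnt6 and the lowest for Wnt2b. Without PBS tumor 1 the log2 fold change was 0.68 for Wnt6 and -0.37 for Wnt2b. Wnt5b, a close relative of Wnt5a, had a CPM of 0.693, 0.880 and 1.37 in the PBS tumors, against 0.631, 1.24 and 0.729 in the GB2 tumors, with a log2 fold change of -0.18 (SE 0.45, adjusted p = 0.924, edgeR). The value for Wnt5b is uncertain in another way. The gene Fbxl14 overlaps it on the opposite strand with 34836 counts over all tumors, against 418 for Wnt5b, and the strand setting of the counting is not given in the sources used here. For Wnt5a, the overlapping gene Gm2670 had 15 counts, against 424. The 8 overlapping ligands as a whole had log2 fold changes from -1.10, for Wnt7b, to 0.55, for Wnt10a, and adjusted p values from 0.805 to 0.986. Of the other untested ligands, Wnt8b had 11, 3 and 0 counts in the PBS tumors, against 0 in each GB2 tumor. It had fewer than 12 counts in every tumor, and no fold is given for it either.

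**Figure D3:**
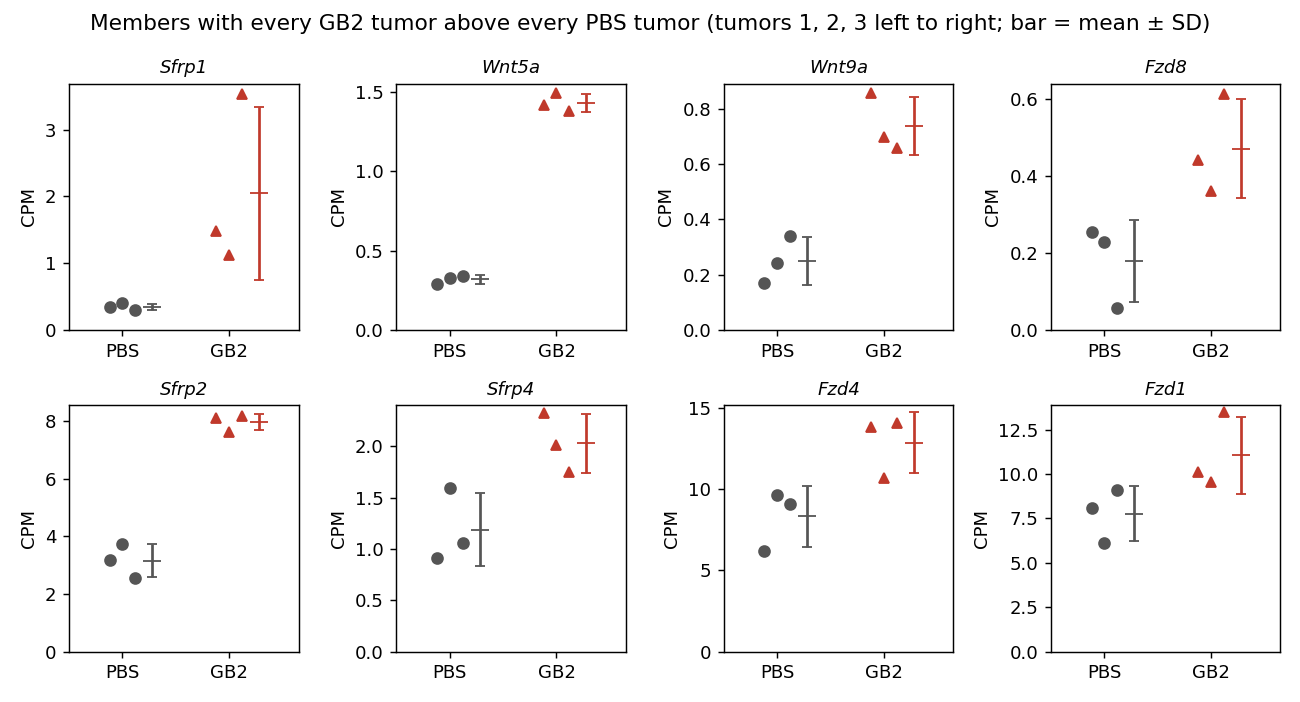
CPM of the 8 members that were higher in GB2 with no overlap between the groups, 1 panel for each gene, with axes that start at 0. Points are tumors 1, 2 and 3 of each group from left to right, and the cross with its bar is the mean ± SD of 3 tumors. In Wnt5a and Sfrp2 the gap between the groups is wide against the spread, in Sfrp1 GB2 tumor 3 at 3.53 CPM stands above the other GB2 tumors, and in Fzd1 and Fzd4 the gap is narrow.

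Of the 9 tested Frizzled genes, 3 were higher in GB2 with no overlap between the groups, where 8.61% of all genes tested were. At the looser limit there were 0 of the 9. The median log2 fold change of all 9 was 0.05. Fzd4 encodes a receptor needed for growth of blood vessels in the retina, where it binds Norrin as well as Wnts. Its CPM was 6.19, 9.65 and 9.11 in the PBS tumors, against 13.8, 10.7 and 14.1 in the GB2 tumors. The lowest GB2 tumor was only a little above the highest PBS tumor. The log2 fold change was 0.63 (SE 0.26, adjusted p = 0.700, edgeR's quasi-likelihood test), and its unadjusted p stayed under 0.05 in 7 of the 14 other settings.

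Fzd1, a receptor of the β-catenin branch, had a CPM of 8.10, 6.10 and 9.12 in the PBS tumors, against 10.1, 9.52 and 13.5 in the GB2 tumors. The gap between the groups was smaller than the spread within each. Its log2 fold change was 0.51 (SE 0.26, adjusted p = 0.757, edgeR). Fzd8 was far less abundant, at 0.254, 0.227 and 0.0566 CPM in the PBS tumors, against 0.441, 0.361 and 0.612 CPM in the GB2 tumors. It did not overlap either, on a few read pairs per tumor, and its log2 fold change of 1.39 had an SE of 0.69 (adjusted p = 0.757, edgeR). Without PBS tumor 3, the log2 fold change of Fzd8 was 0.97.

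Fzd7, the most abundant Frizzled gene, overlapped between the groups. It had 88.8, 85.4 and 59.0 CPM in the PBS tumors, against 62.4, 51.4 and 84.4 CPM in the GB2 tumors, with a log2 fold change of -0.23 (SE 0.25, adjusted p = 0.839, edgeR). The remaining Frizzled genes, Fzd2, Fzd3, Fzd5, Fzd6 and Fzd9, overlapped as well. With Fzd7, their log2 fold changes ran from -0.61 for Fzd9 to 0.28 for Fzd6, with adjusted p values from 0.839 to 0.984. Fzd9 was wide among the PBS tumors, at 2.60, 2.07 and 10.2 CPM, against 2.76, 2.14 and 4.88 CPM in the GB2 tumors.

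The co-receptors of the β-catenin branch were abundant and overlapped. Lrp5 had 58.0, 135 and 223 CPM in the PBS tumors, against 133, 149 and 140 CPM in the GB2 tumors. The GB2 tumors were nearly alike, while the PBS tumors ran from the lowest to the highest value of all 6. Its log2 fold change was 0.02 (SE 0.42, adjusted p = 0.992, edgeR), but without PBS tumor 1 it was -0.33 and without PBS tumor 3 it was 0.54. Lrp6 had 283, 205.5 and 235 CPM in the PBS tumors, against 199, 184 and 240 CPM in the GB2 tumors. Its log2 fold change of -0.22 (SE 0.20, adjusted p = 0.812, edgeR) was small against the spread.

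ROR1 and ROR2 are receptors for WNT5A. Ror1 had 0.304, 0.0568 and 0.424 CPM in the PBS tumors, against 0.345, 0.661 and 0.588 CPM in the GB2 tumors, and Ror2 had 0.254, 0.114 and 0.566 CPM against 0.679, 0.733 and 0.447 CPM. Both overlapped through PBS tumor 3, the highest of the PBS tumors for each gene. The log2 fold change was 1.02 for Ror1 (SE 0.74, adjusted p = 0.789) and 0.99 for Ror2 (SE 0.66, adjusted p = 0.775), in edgeR's quasi-likelihood test. Both genes were at 0.165 FPKM or less in every tumor, so Ror1 and Ror2 were measured on few reads.

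All 6 tested secreted antagonists had a positive log2 fold change, with a median of 0.70, where 9475 of all 19602 genes tested did. For 2 of them, Sfrp1 and Sfrp2, the difference passed the looser limit, where 3.74% of all genes passed it as higher. The other 4 antagonists had too few counts to be tested. SFRP proteins carry a domain like the Wnt-binding domain of Frizzled and hold Wnts outside the cell. Sfrp1 (ENSMUSG00000031548, chromosome 8 from 23901518 to 23939648 in the table's positions) had 20, 28 and 21 counts in the PBS tumors, against 124, 94 and 300 counts in the GB2 tumors. In CPM this was 0.338, 0.397 and 0.297 against 1.48, 1.13 and 3.53. Each GB2 tumor lay above each PBS tumor, and GB2 tumor 3 lay far above the other GB2 tumors. The means were 0.344 ± 0.0504 (SD, n = 3) and 2.05 ± 1.30 (SD, n = 3), a 5.92-fold difference. Its log2 fold change of 2.57 (SE 0.53, adjusted p = 0.234, edgeR's quasi-likelihood test) was the largest among the tested members, and without GB2 tumor 3 it was 1.92. DESeq2 gave an adjusted p of 0.00145, at the low end of a range up to 0.767 over the 14 other settings.

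Sfrp2 was the most abundant of the members at the looser limit. Sfrp2 (ENSMUSG00000027996, chromosome 3 from 83673628 to 83681623 in the table's positions) had 3.20, 3.73 and 2.56 CPM in the PBS tumors, against 8.10, 7.64 and 8.18 CPM in the GB2 tumors. The groups did not overlap, and the GB2 tumors were nearly alike. The means were 3.16 ± 0.587 (SD, n = 3) and 7.97 ± 0.293 (SD, n = 3), a 2.52-fold difference. The log2 fold change was 1.33 (SE 0.25, adjusted p = 0.210, edgeR's quasi-likelihood test). On the FPKM scale, Sfrp2 was at 1.36 ± 0.269 (SD, n = 3) and 3.62 ± 0.215 (SD, n = 3). Its adjusted p in DESeq2 was 2.0e-05, the lowest over the 14 other settings, in which the highest was 0.755.

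Sfrp4, a further member of the family, had 0.913, 1.59 and 1.06 CPM in the PBS tumors, against 2.32, 2.01 and 1.75 CPM in the GB2 tumors. The lowest GB2 tumor was just above PBS tumor 2, and the log2 fold change was 0.77 (SE 0.35, adjusted p = 0.750, edgeR). Dkk3, the most abundant member, had 25.6, 42.7 and 66.3 CPM in the PBS tumors, against 75.2, 86.0 and 47.6 CPM in the GB2 tumors. It overlapped through PBS tumor 3 and GB2 tumor 3, with a log2 fold change of 0.63 (SE 0.37, adjusted p = 0.758, edgeR), which was 1.03 without PBS tumor 3. Frzb, also known as Sfrp3, had 8.59, 5.63 and 10.2 CPM in the PBS tumors, against 13.8, 9.53 and 8.46 CPM in the GB2 tumors, a log2 fold change of 0.38 (SE 0.31, adjusted p = 0.801, edgeR). Both genes overlapped between the groups, as did Dkk2 (log2 fold change 0.24, adjusted p = 0.929).

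Axin2, a target of β-catenin and TCF whose protein in turn promotes the destruction of β-catenin, overlapped between the groups. Its CPM was 4.13, 7.66 and 3.51 in the PBS tumors, against 6.36, 9.15 and 4.05 in the GB2 tumors. Tumor 2 was the highest in each group, and the difference between the group means was smaller than the spread within a group. The log2 fold change was 0.35 (SE 0.42, adjusted p = 0.857, edgeR's quasi-likelihood test), and it ran from 0.03 without GB2 tumor 2 to 0.78 without PBS tumor 2. It was positive in all 14 other settings, with adjusted p values from 0.689 to 0.998.

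Beyond the members, 54 genes from fixed lists of the same pathway were measured, and 51 of them were tested. At the looser limit 2 were higher in the GB2 tumors, where 3.74% of all genes tested were, and 0 were lower, where 0.918% were. Without GB2 tumor 1 there was 1 lower, where 0.926% of all genes were. The groups did not overlap in 5 of the 51, with GB2 higher in 4 and lower in 1, where 15.3% of all genes did not overlap (8.61% higher and 6.68% lower). Their median log2 fold change was 0.09. Ptk7 encodes a catalytically inactive receptor kinase that takes part in Wnt and planar polarity signalling. It had 1.93, 1.75 and 1.68 CPM in the PBS tumors, against 4.06, 3.56 and 5.16 CPM in the GB2 tumors. Its groups did not overlap, with a log2 fold change of 1.25 (SE 0.28, adjusted p = 0.276, edgeR's quasi-likelihood test). Gpc3 encodes glypican 3, a cell surface proteoglycan that binds Wnts, and had 0.778, 0.568 and 0.410 CPM in the PBS tumors, against 2.21, 1.08 and 3.56 CPM in the GB2 tumors. It did not overlap either, with a log2 fold change of 1.97 (SE 0.52, adjusted p = 0.352, edgeR). DESeq2 called both, with an adjusted p of 0.00168 for Ptk7 and 0.0274 for Gpc3, the lowest over the 14 other settings, in which the highest were 0.857 and 0.891.

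The 8 tested genes of the destruction complex and of Dishevelled had log2 fold changes from -0.08 to 0.18, and none passed the looser limit. Ctnnb1, the gene of β-catenin itself, had 1136, 1307 and 1361 CPM in the PBS tumors, against 1625, 1713 and 1422 CPM in the GB2 tumors. The groups did not overlap, but the log2 fold change was only 0.32 (SE 0.18, adjusted p = 0.757, edgeR). Tcf7, which encodes a TCF factor and is also expressed by T cells, had 5.33, 9.69 and 5.32 CPM in the PBS tumors, against 9.48, 13.8 and 16.7 CPM in the GB2 tumors. Its groups overlapped through PBS tumor 2, and its log2 fold change was 0.98 (SE 0.34, adjusted p = 0.594, edgeR).

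Of 15 listed target genes of the branch, 13 were tested, with 6 positive and 7 negative log2 fold changes and a median of -0.004. None passed the looser limit in edgeR with all tumors. Tcf7 passed it as higher without PBS tumor 2 (log2 fold change 1.33, SE 0.33), without GB2 tumor 1 (1.17, SE 0.36) and, with all tumors, in limma on log2(FPKM + 0.1) (1.04). Their log2 fold changes ran from -1.48 for Dact1 to 0.98 for Tcf7. Dact1, whose protein binds Dishevelled, had 11.8, 44.97 and 24.5 CPM in the PBS tumors, against 23.9, 2.44 and 2.94 in the GB2 tumors, with overlap through GB2 tumor 1 (SE 0.91, adjusted p = 0.762, edgeR). Without GB2 tumor 1, its log2 fold change was -3.33 (SE 0.61, adjusted p = 0.452, edgeR), and Dact1 was then the 1 pathway gene lower at the looser limit. Myc was at -0.12 (SE 0.28), Ccnd1 at 0.08 (SE 0.33), Cd44 at 0.04 (SE 0.25) and Lgr5 at -0.15 (SE 0.52) on the log2 scale. Of the 8 planar polarity genes, 7 had a positive log2 fold change, with a median of 0.29, and 0 passed the looser limit. Wls, which encodes the carrier that brings Wnts to the cell surface, overlapped at 0.12 (SE 0.27), and Porcn, which encodes the enzyme that attaches the lipid to Wnts, at -0.52 (SE 0.54). Igfbp4, whose protein can hold off Wnts at their receptors, was the 1 listed gene with every GB2 tumor below every PBS tumor, at -0.42 (SE 0.21, adjusted p = 0.757, edgeR).

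Markers of several cell types were higher in the same tumors as Sfrp1, Sfrp2 and Wnt5a. All 10 fibroblast markers passed the looser limit as higher in the GB2 tumors, with a median log2 fold change of 1.50 and no overlap in any of the 10. Their summed level was 37.2 to 64.3 FPKM in the PBS tumors and 123 to 179 FPKM in the GB2 tumors, with Col1a1 and Dcn among them. Within the GB2 group, tumor 3 had the highest fibroblast sum. Of the 8 members whose groups did not overlap, it was also the highest GB2 tumor for Sfrp1, Sfrp2, Fzd1, Fzd4 and Fzd8, and the lowest for Wnt5a, Wnt9a and Sfrp4. All 8 macrophage markers passed the same limit, with sums of 42.6 to 58.6 FPKM and 165 to 230 FPKM.

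Of the 8 endothelial markers, 5 passed it, with sums of 8.68 to 11.7 FPKM and 22.5 to 26.1 FPKM. The log2 fold change was positive for 7 of them and negative for Vwf, at -0.48 (SE 0.37, adjusted p = 0.796, edgeR). Of the 8 markers of pericytes and smooth muscle, 1 did, Pdgfrb, and the sums overlapped at 50.3 to 106 FPKM and 85.6 to 98.7 FPKM. The 8 keratinocyte markers gave 0 at the limit, with sums of 12.1 to 37.4 FPKM and 35.1 to 60.6 FPKM, and the 7 adipocyte markers gave 0, with 4.11 to 14.5 FPKM and 14.6 to 20.1 FPKM. Skeletal muscle had 2 of 7, with 36.0 to 58.3 FPKM and 77.3 to 95.2 FPKM, neutrophils had 4 of 5 tested, with 2.47 to 5.73 FPKM and 9.83 to 13.4 FPKM, and T cells had 0 of 8, with 0.433 to 3.29 FPKM and 0.912 to 2.83 FPKM. Of all the markers, 1 neutrophil gene was at 0 in every tumor. The part of these cells in the values of the members was not tested.

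The label of a colon carcinoma was checked on epithelial markers. Epcam was at 0.0744 to 0.456 FPKM, Krt8 at 0 to 1.17 FPKM and Krt18 at 0.175 to 1.60 FPKM over the 6 tumors. Krt19 had at most 31 counts, and Cdx2 was at 0 counts in all tumors but PBS tumor 3, where it had 3. Epithelial markers were thus low for tissue labelled as a colon carcinoma, with sums of 2.32 to 2.71 FPKM over 9 markers in the PBS tumors and 2.73 to 5.22 FPKM in the GB2 tumors. Epcam, the 1 marker at the looser limit, had a log2 fold change of 1.64 (SE 0.52, adjusted p = 0.508, edgeR).

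**Figure D4:**
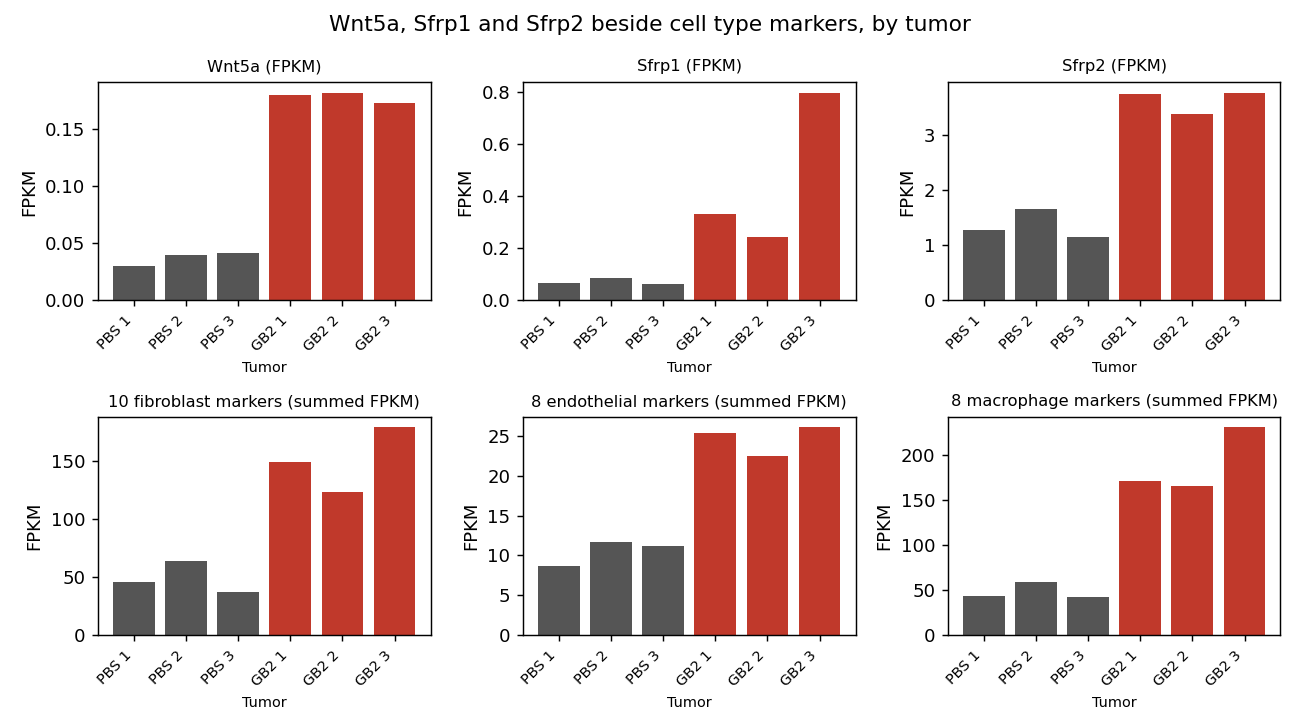
Level of Wnt5a, Sfrp1 and Sfrp2 (FPKM, upper row) and summed level of 10 fibroblast, 8 endothelial and 8 macrophage markers (FPKM, lower row) in each tumor, with axes that start at 0. Dark bars are PBS tumors 1, 2 and 3 and red bars are GB2 tumors 1, 2 and 3. In all 6 panels each GB2 tumor is above each PBS tumor, and GB2 tumor 3 has the highest Sfrp1 level and the highest fibroblast, endothelial and macrophage sums.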

How the data were processed

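RNA of 6 tumors, 3 given PBS and 3 given GB2, was sequenced as poly-A selected, strand-marked, paired-end libraries, and groups and tumor numbers come from the sample titles. The table gives estimated counts and FPKM values for every gene and tumor. The submitters' processing notes name cutadapt 1.9, HISAT2 2.2.1, StringTie 2.1.6, DESeq2, edgeR and mm10, without their order. Estimated counts, as deposited, are whole and not scaled between tumors, and about 4 stand for 1 read pair, since 7017 values equal 4, against 2984 equal to 3 and 2017 equal to 5. The deposited FPKM values are scaled by the authors for transcript length and library size. Of the 46 members, 1 has the same position in the GRCm38 annotation and 42 the same length, so positions are printed as the table gives them and differ from those of the RefSeq promoters.

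The counts were fitted with edgeR 4.0.16 in R 4.3.3 (filterByExpr, minimum count 10, TMM factors of 0.914 to 1.04, glmQLFit, glmQLFTest) and Benjamini-Hochberg adjustment over the 19602 genes tested. The limits of 0.05 on the adjusted p and 2-fold are those of the study's methods. Because 0 genes passed, the same limits on the unadjusted p were used to describe the members. The members, the lists and these limits were chosen with earlier results of these data known. Members with values of their own were those with an unadjusted p under 0.05, those whose groups did not overlap, the 3 most abundant of each role, and Axin2. Genes of the pathway lists were given values by the same limits or as examples, and markers as examples. The examples among the target genes (Dact1 too), Wls, Porcn, Ror1, Ror2, Fzd9, Wif1, Wnt8b, Dkk1 and the epithelial markers were chosen after their values were seen. Of the 55 pathway genes listed, Sost was not analysed here.

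The 14 other settings were DESeq2 size factors, upper-quartile factors, no filter on low counts, counts divided by 4, DESeq2 1.42.0, limma 3.58.1 on log2(FPKM + 1) and on log2(FPKM + 0.1), the tumor number as a block, and each of the 6 tumors left out. The computations were tested on simulated data. The common dispersion of 0.164, or a biological coefficient of variation of 40.5%, limits the precision that 3 tumors per group give, and reads without molecular identifiers are not independent molecules, so that floors cover counting error only. No tumors were duplicates, since counts differed by 19.2 or more in chi-square per degree of freedom between tumors of a group. The labels do not say whether the tumors came from separate mice, so p-values measure the spread between these tumors.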

Additional observations from a re-analysis of the deposited data

How the results depend on the processing

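Wnt5a, Sfrp1 and Sfrp2 had an unadjusted p under 0.05 in 14 of the 14 other settings, and Wnt9a in 13. Of 307 values of 22 named genes in these settings, 7 turned in direction, in 4 genes, and all of them in fits that leave out 1 tumor. Over these fits the log2 fold change ran from -0.33 to 0.54 for Lrp5, from -0.37 to 0.37 for Wnt2b, from -0.10 to 0.68 for Wnt6 and from -0.53 to 0.14 for Wnt5b. The number of members called at the adjusted limit was 0 in edgeR and limma and 3 in DESeq2, and that of all genes was 0 and 385. The cause was not tested. On log2(FPKM + 1), a scale that shrinks the difference of genes well under 1 FPKM, 0 members and 0 pathway genes were higher at the looser limit, beside 0.485% of all genes, and the median log2 difference of the members was 0.074.

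Leaving out each tumor in turn, 4 to 7 members were higher at the looser limit, beside 2.49% to 4.63% of all genes. There were 7 without PBS tumor 3 and 6 without PBS tumor 2. Wif1, which entered only through its GB2 counts, was among them without PBS tumor 1, 2 or 3 and without GB2 tumor 1. Ror2, among the 7 without PBS tumor 3, entered that fit only with the help of its GB2 counts. Without GB2 tumor 1, the 4 members were Wif1, Wnt5a, Sfrp1 and Sfrp2, so this count rests on Wif1 too. In the 6 fits, 8 to 15 members had every GB2 tumor above every PBS tumor, where 11.6% to 15.7% of all genes did. The 15, found without PBS tumor 3, include Wif1, Ror1 and Ror2, which passed the filter there only with the help of GB2 counts. Wif1 is counted here in the same fits as above. The opposite order was found in 0 to 1 members and in 9.64% to 14.6% of all genes. Over these fits, the median log2 fold change of the members ran from 0.21 to 0.53. The number of pathway genes lower at the looser limit ran from 0 to 1. With the tumor number as a replicate block, 4 members were higher at the looser limit, beside 3.24% of all genes, 0 were called, and the median was 0.39. No pairing of tumors by number was evident, as same-numbered tumors deviated from their group means with correlations of 0.03, 0.15 and -0.24 across genes. Differently numbered tumors gave -0.26 to 0.24. With 3 tumors per group, such correlations cannot exclude a pairing. Depth limits the 16 untested members, with at most 26 counts in any tumor, and the PBS values of Wnt5a, Wnt9a, Sfrp1 and Fzd8.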
